A study of Mus musculus with 11 samples.

Results

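The galectin genes Lgals1, Lgals3, Lgals4, Lgals8 and Lgals9 and the galectin ligand gene Lgals3bp were followed in mouse hearts across 4 groups. These 6 genes, of 18194 measured, were taken by name, and each is read from the probe set with the highest mean log2 value among those annotated with exactly 1 gene symbol. As a family they were chosen by the log2 differences between these same groups, which were already known, so their counts are descriptions. Each p comes from a fit over all 18194 genes and is no independent evidence.

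RNA of the left ventricle, from C57BL/6 mice, was hybridised to Affymetrix expression arrays. The groups were 3 HMGN5 transgenic adult hearts, 3 control adult hearts, 3 HMGN5 transgenic newborn hearts and 2 control newborn hearts. HMGN5 is a protein that binds nucleosomes and opens chromatin. The transgene is a FLAG-tagged Hmgn5 cDNA behind the broadly active CAG promoter and a floxed LacZ cassette. The cassette was removed by alphaMHC-cre, whose promoter is active in heart muscle cells. Controls are labelled wild-type, and nothing in the labels says that they carried the Cre, so the transgene and the Cre cannot be told apart. Ages are given as adult or newborn alone, and no label says whether newborn hearts were pooled.

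Galectins are lectins that bind beta-galactosides on glycoproteins and glycolipids, inside and outside the cell. They differ in build: galectin-1 is a dimer of single-domain subunits, galectin-3 joins its lectin domain to a tail through which it oligomerises, and galectins 4, 8 and 9 carry a pair of linked lectin domains. In the heart, galectin-3 is best known as a product of macrophages and activated fibroblasts and as a marker of fibrosis and heart failure.

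Short stretches of the promoters of Lgals3bp and Lgals9 are shown because both genes are known interferon targets and their levels are given below beside other interferon-induced genes. Promoter windows of 300 bases, 250 before and 50 after the start of each gene, came from RefSeq (GRCm38.p6), and 5 of the 6 genes matched, all but Lgals1. The pattern AAANNGAAA, taken here as the core of the interferon-stimulated response element, was searched on both strands. It is marked in capitals, with 8 bases on each side. It was chosen with the promoter sequences in view.
Lgals3bp, chr11:118401958-118401982, minus strand: ttttctgaAAATCGAAActaggtga
Lgals9, chr11:78984963-78984987, minus strand: acatcagcTTTCTTTTTctctagac
Lgals9, chr11:78984893-78984917, minus strand: agctgtggTTTCTGTTTcctagctc
The Lgals3bp match begins 15 bases before the start and reads along the gene. The Lgals9 matches begin 55 bases before and 16 bases after the start, and both lie on the opposite strand. The same letters occurred in 10.6% of 32851 promoter windows. The GC box GGGCGG, present in 35.7% of windows, occurred at 2 positions for Lgals3 and 1 for Lgals4, and the AP-1 site TGANTCA, present in 7.81%, did not occur in the 5 windows.

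The arrays had similar medians, from 5.12 to 5.18 log2 units. Cardiomyocyte markers were near the top of the scale everywhere, with a list mean of 13.27 to 13.56 in transgenic adult hearts, 13.41 to 13.58 in control adult hearts, 13.21 to 13.30 in transgenic newborn hearts and 13.30 to 13.31 in control newborn hearts. The labels were checked against Hmgn5 itself, whose probe set gave no higher value under the transgenic label: the adult difference was -0.16 (SE 0.14, limma adjusted p = 0.647) and the newborn difference -0.13 (SE 0.16, limma adjusted p = 0.999985). Whether that probe set reads the transgene is not given in the sources used here, so every direction below rests on the labels. Replicate 3 of both adult groups stood apart in its 18S ribosomal control signal. It was 12.18 in the transgenic and 11.89 in the control array, against 7.64 to 8.58 on the other adult arrays. Those high adult arrays, with a signal above 11, are called the 18S batch below. The split was made here from the signal, and no label names a batch. Newborn arrays read 10.05 to 10.53, so the age comparisons also differ in this signal, whose part was not tested. The mean of the atrial genes Myl4, Myl7 and Sln also varied, at 10.53, 6.59 and 6.52 in transgenic adult hearts, 10.10, 10.38 and 12.24 in control adult hearts and 12.49 to 12.87 in newborn hearts.

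Lgals3 separated the adult groups most. It encodes galectin-3, also known as the macrophage antigen Mac-2. It read 10.13, 10.05 and 9.71 in transgenic adult hearts, against 5.73, 5.38 and 6.32 in control adult hearts. In newborns it read 8.16, 8.16 and 7.17 in transgenic hearts, against 7.83 and 8.02 in control hearts. The adult groups lay more than 3 log2 units apart at their nearest arrays, and the newborn groups overlapped.

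Lgals3 rose in transgenic adults by 4.15 on the log2 scale (SE 0.29, 95% interval 3.52 to 4.79, limma adjusted p = 5.50e-05), which is 17.8-fold. In newborns the difference was -0.09 (SE 0.32, 95% interval -0.80 to 0.62, limma adjusted p = 0.999985). The adult effect exceeded the newborn effect by 4.25 (SE 0.43, limma adjusted p = 0.00305). With the 18S arrays left out the adult difference was 4.54, and with the atrial genes as a covariate it was 4.58. The group means were 9.96 ± 0.23 in transgenic adults, 5.81 ± 0.48 in control adults, 7.83 ± 0.57 in transgenic newborns and 7.92 ± 0.13 in control newborns (SD, n = 3, 3, 3 and 2). Transgenic adults were highest and control adults lowest, and the newborn pair did not differ beyond its spread. With age Lgals3 moved in opposite directions: it rose by 2.13 in transgenic adults relative to transgenic newborns (SE 0.29, limma adjusted p = 2.55e-04) and fell by 2.11 in control adults relative to control newborns (SE 0.32, limma adjusted p = 6.33e-04).

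**Figure D1:**
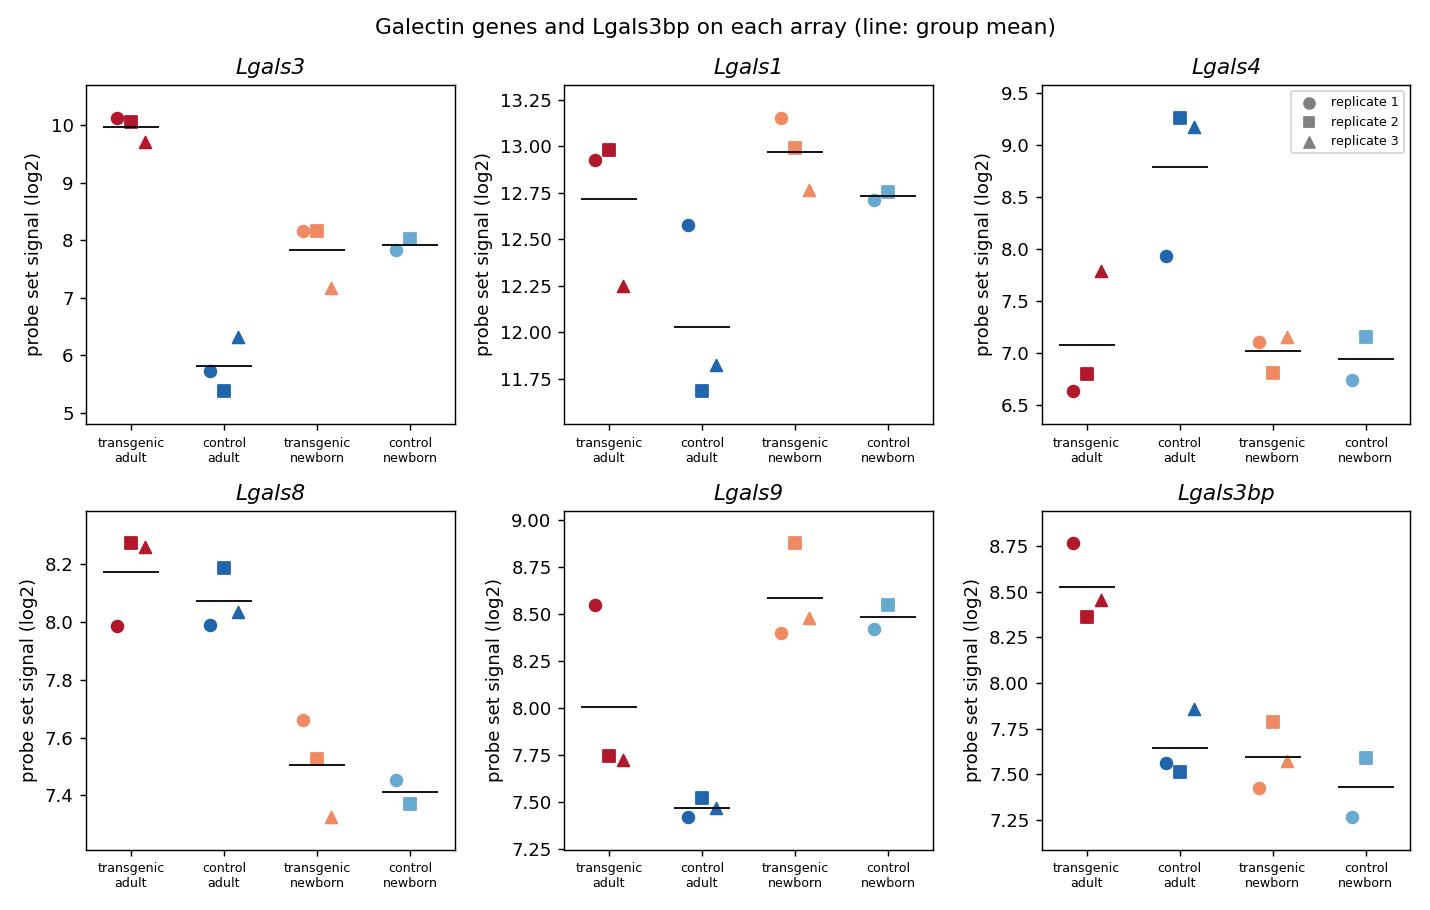
Log2 values of the 6 genes on each array (points), with group means (lines), transgenic left of control and adult left of newborn. Lgals3 in the transgenic adult arrays, 9.71 to 10.13, lies above every other array, and Lgals4 is highest in control adult hearts.

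Lgals3bp encodes a secreted glycoprotein of the scavenger receptor family that binds galectin-3 and is not itself a galectin. It read 8.76, 8.36 and 8.46 in transgenic adult hearts, against 7.56, 7.51 and 7.86 in control adult hearts. It read 7.42, 7.78 and 7.57 in transgenic newborn hearts, against 7.27 and 7.59 in control newborn hearts. All transgenic adult arrays lay above the other 8 arrays, which overlapped. Lgals3bp rose by 0.88 in transgenic adults (SE 0.16, 95% interval 0.54 to 1.23, limma adjusted p = 0.00699), or 1.84-fold. The newborn difference was 0.16 (SE 0.17), and the adult effect was larger by 0.72 (SE 0.23), which did not pass (limma adjusted p = 0.268). Lgals3bp rose with age in transgenic hearts by 0.93 (SE 0.16, limma adjusted p = 0.00104), and in control hearts the age difference was 0.22 (SE 0.17, limma adjusted p = 0.350).

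Lgals1 encodes galectin-1, a secreted single-domain galectin made by muscle and stromal cells. It read 12.92, 12.98 and 12.25 in transgenic adult hearts, against 12.58, 11.68 and 11.83 in control adult hearts, which overlapped. In newborns it read 13.15, 12.99 and 12.76 in transgenic hearts, against 12.71 and 12.75 in control hearts, which lay just apart. The adult difference was 0.69 (SE 0.25, 95% interval 0.15 to 1.23, limma adjusted p = 0.134) and the newborn difference 0.24 (SE 0.28, limma adjusted p = 0.999985). The second Lgals1 probe set gave an adult difference of 0.69 (SE 0.27, limma adjusted p = 0.203 over 34958 probe sets). The adult difference passed without transgenic adult replicate 3 (adjusted p = 0.0205), without control adult replicate 1 (0.0231), without the 18S batch (0.0494), with that batch as a factor (0.0411) and with array weights (0.0173). The age difference in control hearts was -0.70 (SE 0.28, limma adjusted p = 0.0710), and passed without control adult replicate 1 (0.0122), without transgenic adult replicate 3 (0.0279) and with array weights (0.00552). On the second probe set the newborn groups overlapped, at 12.70, 12.57 and 12.41 in transgenic and 12.36 and 12.51 in control hearts. Its age difference in control hearts was -0.58 (SE 0.30, limma adjusted p = 0.168 over 34958 probe sets).

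Lgals4 encodes galectin-4, best known in the epithelium of the gut. It read 6.64, 6.80 and 7.79 in transgenic adult hearts, against 7.93, 9.26 and 9.17 in control adult hearts. In newborns it read 7.10, 6.81 and 7.16 in transgenic hearts, against 6.74 and 7.15 in control hearts. The adult groups did not overlap, while transgenic adults and both newborn groups did. Lgals4 fell by 1.71 in transgenic adults (SE 0.36, 95% interval -2.51 to -0.91, limma adjusted p = 0.0167), which is 3.28-fold lower.

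The Lgals4 call was lost with only the adult arrays in the fit (-1.71, limma adjusted p = 0.107), with the atrial covariate (-1.90, 0.140), without transgenic adult replicate 1 (0.0649) or 2 (0.0564) and without control adult replicate 2 (0.0756) or 3 (0.0614). Without the 18S batch the difference was -1.88 (adjusted p = 0.00506). In control hearts Lgals4 rose with age by 1.84 (SE 0.41, limma adjusted p = 0.00595), a call lost without control newborn replicate 1 (0.0692), and in transgenic hearts the age difference was 0.05 (SE 0.37, limma adjusted p = 0.921). The difference between the adult and newborn effects was -1.79 (SE 0.55, limma adjusted p = 0.219). It passed with array weights (0.0104), with the 18S batch as a factor (0.0493) or left out (0.0423), without transgenic adult replicate 3 (0.0322) and without control adult replicate 1 (0.0424). None of 12 gut epithelial markers passed between adult groups, with 0 under an unadjusted p of 0.05. Their mean was 4.66 to 4.92 in transgenic and 4.70 to 4.78 in control adult hearts, below the array medians of 5.12 to 5.18. With age 5 of the 12 rose and 2 fell in transgenic hearts, where 19.7% of all genes rose and 19.7% fell. In control hearts 1 rose and 2 fell, where 14.9% of all genes rose and 18.1% fell.

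Lgals8 encodes galectin-8, which in human cells marks damaged vesicles for autophagy. It read 7.98, 8.27 and 8.26 in transgenic adult hearts, against 7.99, 8.19 and 8.04 in control adult hearts. It read 7.66, 7.53 and 7.33 in transgenic newborn hearts, against 7.45 and 7.37 in control newborn hearts. The genotypes overlapped at both ages and all adult arrays lay above all newborn arrays. The adult genotype difference was 0.10 (SE 0.12, 95% interval -0.17 to 0.38, limma adjusted p = 0.755). Lgals8 rose with age by 0.67 in transgenic hearts (SE 0.12, limma adjusted p = 0.00202) and by 0.66 in control hearts (SE 0.14, limma adjusted p = 0.00467), and with the atrial covariate the transgenic value was 0.41 and its call was lost (adjusted p = 0.267). Its second probe set rose with age by 0.95 in transgenic and 0.79 in control hearts (limma adjusted p = 0.00307 and 0.0161 over 34958 probe sets).

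Lgals9 encodes galectin-9, an interferon-induced ligand of the T cell receptor TIM-3. It read 8.55, 7.75 and 7.72 in transgenic adult hearts, against 7.42, 7.52 and 7.47 in control adult hearts. In newborns it read 8.40, 8.88 and 8.48 in transgenic hearts, against 8.42 and 8.55 in control hearts. The adult groups did not overlap, transgenic replicate 1 stood above the other adults, and the newborn groups overlapped. The adult difference was 0.54 (SE 0.21, 95% interval 0.08 to 0.99) and did not pass (limma adjusted p = 0.170, and 0.0580 to 0.376 over the other settings). It was 0.26 without transgenic adult replicate 1 and 1.03 with the atrial covariate, and passed in neither. Lgals9 fell with age by 1.02 in control hearts (SE 0.23, limma adjusted p = 0.00718), a call lost without control newborn replicate 2 (0.0569). In transgenic hearts it fell by 0.58 (SE 0.21, limma adjusted p = 0.0465), a call that held in 7 of 25 other settings. With the atrial covariate its direction turned, to 0.21 (adjusted p = 0.678). Without transgenic adult replicate 1 the value was -0.85 (adjusted p = 0.00222), and leaving out any other single array lost the call, with adjusted p from 0.0547 without control adult replicate 3 to 0.170 without transgenic newborn replicate 2.

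Of the 6 genes, 3 passed between adult genotypes, 2 higher and 1 lower, where 7.09% of all genes passed, 4.16% higher and 2.93% lower. In 4 of them the adult groups did not overlap, which held for 17.9% of all genes. Between newborn genotypes limma called 0 of the 6, with 0 at an unadjusted p under 0.05, where 0.00% of all genes passed, and in 1 the groups did not overlap, against 20.9% of all genes. The adult and newborn effects differed for 1, Lgals3, against 0.687% of all genes, 0.445% with the larger value in adults. With age, 4 of 6 passed in transgenic hearts, 3 higher and 1 lower, against 39.4% of all genes, 19.7% higher and 19.7% lower. In control hearts 4 of 6 passed, 2 higher and 2 lower, against 33.0% of all genes, 14.9% higher and 18.1% lower. The genotype and age comparisons use the same adult arrays and are not independent.

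**Figure D2:**
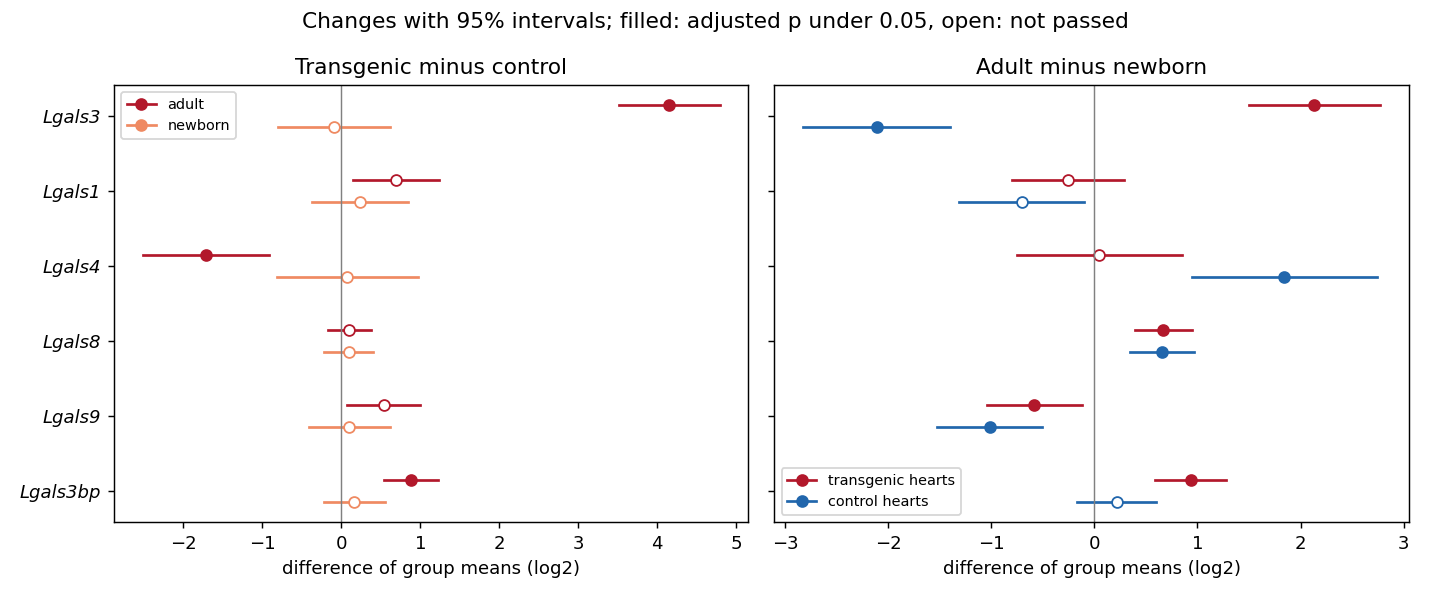
Log2 differences of the 6 genes between genotypes (left) and ages (right), with 95% intervals from limma; filled points passed at adjusted p under 0.05. In adults the Lgals3 interval, 3.52 to 4.79, lies clear of the others, and in newborns all 6 intervals include 0.

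Glycoproteins and receptors that bind galectins moved in part with the adult genotype. Of 49 measured partner genes, 6 rose and 1 fell in transgenic adults, with a median of 0.16 against 0.00 for all genes, of which 4.16% rose and 2.93% fell. Cd44, the hyaluronan receptor, read 8.43, 8.38 and 9.27 in transgenic adult hearts, against 7.18, 6.50 and 6.53 in control adult hearts. Cd44 rose by 1.96 (SE 0.25, limma adjusted p = 0.00134), and the adult groups lay apart by more than 1 log2 unit. Eln, which encodes elastin, rose by 2.04 (SE 0.42, limma adjusted p = 0.0140) and Thbs1, which encodes the matrix glycoprotein thrombospondin-1, by 1.45 (SE 0.33, limma adjusted p = 0.0230). Trim16, whose product binds galectin-3 at damaged lysosomes in human cells, rose by 1.10 (SE 0.19), and the TGF-beta receptor gene Tgfbr2 by 0.84 (SE 0.16). Kdr, which encodes a VEGF receptor of endothelial cells, fell by 0.78 (SE 0.17, limma adjusted p = 0.0209). The number of partner genes rising was 3 with only the adult arrays, 11 without the 18S batch and 0 with the atrial covariate. It was 12 without transgenic adult replicate 3, 2 without control adult replicate 2 and 4 without control adult replicate 3. The number falling was 0 with only the adult arrays, 0 with the atrial covariate, 3 without the 18S batch, 0 without transgenic adult replicate 1, 3 without transgenic adult replicate 3 and 2 without control adult replicate 1 or 2. Kdr was at -0.61 with the atrial covariate (limma adjusted p = 0.325) and lost its call with only the adult arrays (0.138), as did Trim16 (0.0662) and Tgfbr2 (0.0914). Leaving out single arrays lost the call of Eln (limma adjusted p = 0.0648) and Tgfbr2 (0.0507) without control adult replicate 2, and of Kdr without transgenic adult replicate 1 (0.0649). Thbs1 lost it without transgenic adult replicate 1 (0.0833) or 2 (0.0539) or control adult replicate 2 (0.0909) or 3 (0.0580). When all probe sets of a gene were averaged, Cd44 was at 1.01 (limma adjusted p = 0.0538), Tgfbr2 at 0.34 (0.0765), Eln at 1.15 (0.151) and Thbs1 at 1.18 (0.0528), and none of the 4 passed.

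Enzymes that build or trim galectin-binding glycans changed for 3 of 31 genes in adults, 2 higher and 1 lower, with a median of 0.14, where 7.09% of all genes passed. The share of enzymes was thus near that of all genes. B4galt5, a galactosyltransferase, rose by 0.69 (SE 0.12, limma adjusted p = 0.00684) and Gcnt2, which branches polylactosamine chains, by 0.82 (SE 0.18, limma adjusted p = 0.0168). St3gal3, which adds sialic acid to galactose, fell by 0.51 (SE 0.11, limma adjusted p = 0.0205). The number rising was 0 with only the adult arrays, 0 with the atrial covariate and 5 without transgenic adult replicate 3. Gcnt2 lost its call without control adult replicate 3 (limma adjusted p = 0.0590) and, at 0.17, with its probe sets averaged (0.567). St3gal3 lost its call without control adult replicate 2 (0.0783) or 3 (0.0635), without the 18S batch (0.0616), with the atrial covariate (0.271), with only the adult arrays (0.138), with its probe sets averaged (0.131) and with a threshold of 1.5-fold added. Neither list had a gene passing between newborn genotypes by limma, with 1 partner and 0 enzymes at an unadjusted p under 0.05, nor a gene whose adult and newborn effects differed.

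With age 39.4% of all genes passed in transgenic and 33.0% in control hearts, with medians of 0.09 in both, and the lists are read against these shares. Among partner genes, 14 rose and 16 fell in transgenic hearts, and 8 rose and 17 fell in control hearts. Fn1, which encodes fibronectin, had an age difference of -2.82 in transgenic and -3.60 in control hearts, Lamb1, a laminin subunit gene, of -2.14 and -1.65, and Mcam, an adhesion molecule gene, of -1.60 and -2.07. Vtn, which encodes vitronectin, rose by 2.50 in transgenic and 3.01 in control hearts. Among the 31 enzymes, 5 rose and 10 fell in transgenic hearts, where 19.7% of all genes rose and 19.7% fell, and 3 rose and 9 fell in control hearts, where 14.9% rose and 18.1% fell. The N-acetylglucosaminyltransferase gene B3gnt5 had an age difference of -2.72 in transgenic and -2.23 in control hearts, and the sialyltransferase gene St3gal6 of 1.27 and 1.77. Without control newborn replicate 1, 4 partner genes rose and 5 enzyme genes fell in control hearts. In transgenic hearts 2 enzyme genes rose without transgenic adult replicate 1 and 3 without transgenic newborn replicate 1. With the atrial covariate 3 partner genes rose and 5 fell, and 1 enzyme gene rose and 1 fell, in transgenic hearts.

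Galectin-3 is a product of macrophages and of activated fibroblasts, so their markers are given beside it. In a bulk tissue fewer cells of a type and less RNA per cell cannot be told apart. Of all genes, 4.16% rose and 2.93% fell in transgenic adults. Of 20 macrophage markers, 4 rose and 0 fell in transgenic adults, and the list mean was 7.35 to 7.83 in transgenic adult and 7.22 to 7.50 in control adult hearts, against 5.90 to 6.22 in transgenic newborn and 5.87 to 6.18 in control newborn hearts. The count was 0 with only the adult arrays in the fit and 0 with the atrial covariate. It was 0 without transgenic adult replicate 1 or control adult replicate 2 or 3, 1 without transgenic adult replicate 2, transgenic newborn replicate 1 or either control newborn array, 2 without transgenic newborn replicate 2 and 8 without transgenic adult replicate 3. Of 12 activated fibroblast markers, 8 rose and 0 fell, with a list mean of 8.00 to 9.30 in transgenic adult and 6.13 to 6.94 in control adult hearts, and 7.98 to 8.31 in transgenic newborn and 7.81 to 8.06 in control newborn hearts. The count was 4 with the atrial covariate. The mean of the activated fibroblast list was lowest in control adults, as was Lgals3, though its member Fap averaged 6.15 in transgenic adult and 6.83 in control adult hearts, against 6.13 in transgenic newborn and 6.05 in control newborn hearts. Its members Cilp and Comp averaged 5.79 and 6.05 in control adults, above their 3.95 and 5.70 in control newborns. The mean of the macrophage list was higher on all adult arrays than on the newborn arrays, though its member Cx3cr1 averaged 5.38 in both adult groups and 5.54 in control newborn hearts, and Lyve1 overlapped between control adult (8.64 to 8.98) and transgenic newborn hearts (8.13 to 9.01). Their part in the Lgals3 result was not tested. Transgenic adult replicate 3 had the lowest mean of its group for both lists.

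Genes of lipid-laden and phagocytic cells, of which Lgals3 is a known companion, rose in adults for 5 of 14 and fell for 0. Their median was 0.43, against 0.00 for all genes, of which 4.16% rose and 2.93% fell. Gpnmb, a lysosomal glycoprotein gene, read 6.82, 6.83 and 7.34 in transgenic adult hearts, against 5.42, 5.17 and 5.27 in control adult hearts, and rose by 1.71 (SE 0.16, limma adjusted p = 1.86e-04). Its newborn values were 5.46, 5.62 and 5.22 in transgenic and 5.23 and 5.24 in control hearts, and its adult effect exceeded the newborn effect by 1.51 (limma adjusted p = 0.0196). That call was lost in 8 other settings: with the atrial covariate (0.143), with its probe sets averaged (at 0.81, 0.0551), with the replicate block within each age (0.0788), and without control adult replicate 2 (0.0563), transgenic newborn replicate 1 (0.0510) or 3 (0.0672) or control newborn replicate 1 (0.149) or 2 (0.103). The cathepsin genes Ctsk, Ctsz and Ctss, which encode lysosomal proteases, rose by 1.47 (SE 0.23), 1.18 (SE 0.18) and 0.97 (SE 0.22), and the tetraspanin gene Cd9 by 0.96 (SE 0.12). The count was 8 without transgenic adult replicate 3, 8 without the 18S batch and 3 with only the adult arrays. Ctss lost its call without transgenic adult replicate 1 (limma adjusted p = 0.0867) or 2 (0.0817) or control adult replicate 2 (0.0961) or 3 (0.0753), with the atrial covariate (0.111) and with only the adult arrays (0.136), where Ctsz also lost it (0.0512).

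Interferon-induced genes rose for 3 of 25 and fell for 0 in transgenic adults, with a median of 0.28, where 4.16% of all genes rose. Ifit3 rose by 1.52 (SE 0.28, limma adjusted p = 0.00840), Ifit2 by 1.20 (SE 0.20) and Xaf1 by 0.75 (SE 0.18). The count was 1 with only the adult arrays, 0 with the atrial covariate, 9 without the 18S batch and 11 without transgenic adult replicate 3. It was 2 without any of transgenic adult replicate 1 or 2, control adult replicate 2 or 3 and either control newborn array, Xaf1 being lost each time. With age 17 of 25 rose in transgenic hearts, where 19.7% of all genes rose, and 7 of 25 in control hearts, where 14.9% rose. The transgenic count was 8 with the atrial covariate. The control count was 2 without control newborn replicate 1 and 3 without control newborn replicate 2 or control adult replicate 1. Between newborn genotypes limma called 0, with 0 at an unadjusted p under 0.05. With age 0 of the 25 fell in either genotype. Lgals9 went the other way with age, by -1.02 in control and -0.58 in transgenic hearts, the latter call holding in 7 of 25 other settings. Lgals3bp rose with age by 0.93 in transgenic hearts, and its difference of 0.22 in control hearts did not pass. Between adult genotypes Lgals3bp rose by 0.88, and the Lgals9 difference of 0.54 did not pass.

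**Figure D3:**
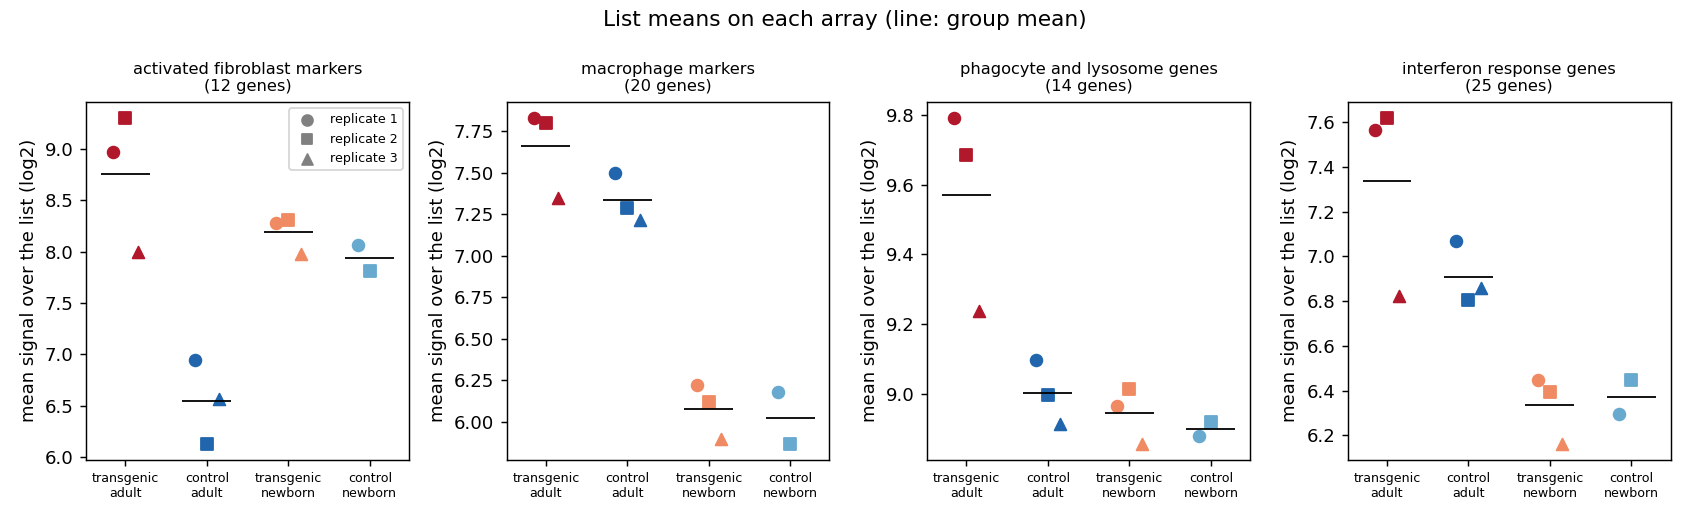
Mean log2 value of 4 gene lists on each array (points, with shapes for replicates and lines for group means), transgenic left of control and adult left of newborn. Activated fibroblast markers run from 6.13 to 6.94 in control adult hearts and from 8.00 to 9.30 in transgenic adult hearts, and transgenic adult replicate 3 is the lowest of its group in all 4 panels.

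The genes whose log2 values over the 11 arrays were most like those of each member are given as descriptions. Clone and predicted-gene names were passed over. The 11 points share the 4 groups, and a second value gives the correlation after group means were removed, over the same arrays. For Lgals3 the 5 nearest were Ecm1 (r = 0.969, or 0.709 within groups), Mfap4 (r = 0.968, or 0.749), Anxa1 (r = 0.963, or 0.672), Tgfb3 (r = 0.960, or 0.495) and Ccn2 (r = 0.958, or 0.490). For Lgals4 they were Dld (r = 0.972, or 0.939 within groups), Mlycd (r = 0.967, or 0.943), Hadha (r = 0.966, or 0.857), Lrrc20 (r = 0.960, or 0.825) and Fyco1 (r = 0.960, or 0.829). These genes were chosen for their correlation over the same arrays, and the values within groups were not compared between members. The nearest gene to Lgals3bp was Psca (r = 0.954, or 0.596 within groups), to Lgals1 Elovl1 (r = 0.958, or 0.913), to Lgals8 Abhd12 (r = 0.983, or 0.854) and to Lgals9 Tbcc (r = 0.960, or 0.824).

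**Figure D4:**
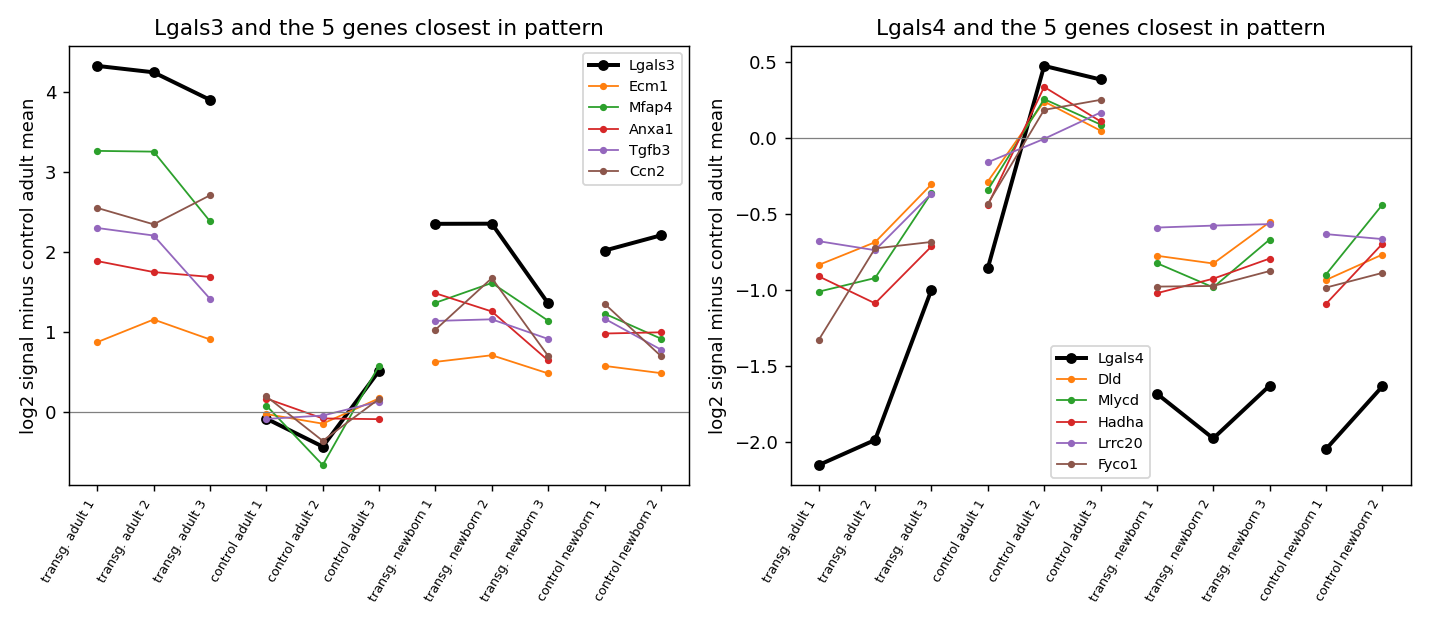
Log2 values minus the control adult mean for Lgals3 and Lgals4 (black) and the 5 genes closest to each (colours), on each of the 11 arrays, with lines joining the arrays of a group. The nearest genes correlate with Lgals3 at r = 0.958 to 0.969 and with Lgals4 at r = 0.960 to 0.972. Clone and predicted-gene names were passed over.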

How the data were processed

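The deposited values are log2 expression values of 45101 probe sets on 11 arrays, which the authors normalised before deposit. RMA, affy and limma are named, with no version or role, per the submitters' processing notes. Arrays carry no read depth, and 2 or 3 arrays a group limit the precision. Probe sets were named from the platform annotation: 34958 had 1 symbol, and 932 with several were left out. The probe set with the highest mean stood for each of 18194 genes. The 4 group means were estimated together in limma (3.58.1, R 4.3.3), with Benjamini-Hochberg adjustment over all genes in each of 5 comparisons and calls at adjusted p under 0.05. The shared residual SD (median 0.18) was below that of adult arrays alone (0.21) and above that of newborn arrays alone (0.11), so adult tests are liberal and newborn tests conservative. The fit was tested on simulated data. Alternatives covered filters, probe set choice, normalisation, weights, the 18S batch, an atrial covariate, replicate blocks and left-out arrays. The members and lists were chosen with earlier results of these data known. Named genes are all members and up to 6 called genes with the smallest p per list and comparison. Replicates are labelled as biological, without saying what animals they came from. No label pairs the samples by replicate number, and the main fit did not pair them.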

Additional observations from a re-analysis of the deposited data

Results flagged for a closer look

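For Lgals3 the transgenic effect differed between ages by 4.25 on the log2 scale (SE 0.43, limma adjusted p = 0.00305). The family was chosen with these differences known, so this p is a description and no independent evidence. All 3 transgenic adult arrays lay above the 3 control adult arrays, while the newborn groups overlapped.

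For Gpnmb the transgenic effect also differed between ages, by 1.51 (SE 0.24, limma adjusted p = 0.0196). It lost the call in 8 other settings, which are given with the gene's values above.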

How the results depend on the processing

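The 6 genes in 5 comparisons gave 30 results, recomputed under 25 settings where each could be had (744 values). Of these, 680 kept direction and side of the threshold, 26 lost a call, 13 gained one, 24 uncalled values changed sign and 1 called value reversed. Lgals3 was called in adults in all 25, from 3.94 to 4.58, and Lgals3bp in all 25, from 0.76 to 1.19. The Lgals3bp call came nearest the threshold with only the adult arrays in the fit (limma adjusted p = 0.0479). The reversal was Lgals9 with age in transgenic hearts, at 0.21 (limma adjusted p = 0.678) with the atrial covariate. The number of genes whose adult and newborn effects differed was 2 with array weights, with the 18S batch as a factor and without that batch, and 1 to 2 over left-out arrays (2 without transgenic adult replicate 3 or control adult replicate 1), Lgals4 being the addition. The number changing with age in transgenic hearts was 2 with the atrial covariate. The causes were not tested. The difference between the adult and newborn effects needs all 4 groups, so fitting only the groups compared gives no value for it. No label pairs the samples by replicate number. Deviations of same-numbered adult arrays correlated at 0.31, -0.06 and 0.45, and those of other adult pairs at -0.42 to 0.31. Same-numbered newborn arrays correlated at 0.18 and -0.15. These values do not settle whether the numbers pair the samples. With the replicate block the counts were 3 between adult genotypes, 0 between newborn genotypes, 1 for the difference, 4 with age in control hearts and 3 with age in transgenic hearts. A block within each age, chosen after seeing the data, gave 3, 0, 1, 4 and 4.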

Other observations

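Of 5 other galectin family genes measured, limma called 0 between adult genotypes, with 1 at an unadjusted p under 0.05. That was Lgalsl, which encodes a galectin-like protein, at 9.75 ± 0.34 in transgenic and 9.09 ± 0.33 in control adult hearts (SD, n = 3 each), a difference of 0.67 (SE 0.19, limma adjusted p = 0.0641). The other Lgalsl probe set averaged 9.54 ± 0.29 in transgenic and 8.72 ± 0.31 in control adult hearts (SD, n = 3 each). Lgals12, known from fat cells, rose with age by 0.64 in transgenic hearts (SE 0.15, limma adjusted p = 0.00748) and by 0.75 in control hearts (SE 0.17, limma adjusted p = 0.00695). Its other probe set did not show this rise. That probe set averaged 3.37 in transgenic adult and 3.40 in transgenic newborn hearts, and 3.39 and 3.38 in control hearts. Grifin, a galectin-related gene of the lens, rose with age by 0.52 in transgenic hearts (SE 0.15, limma adjusted p = 0.0213), and Lgals7, known from skin, fell by 0.75 (SE 0.25, limma adjusted p = 0.0351). Grifin averaged 4.98 in transgenic adult and 4.45 in transgenic newborn hearts, below the array medians of 5.12 to 5.18. Lgals7 averaged 5.01 in transgenic adult hearts, also below them, with 4.50 on replicate 3. In transgenic newborn hearts Lgals7 averaged 5.76, with 6.34 on replicate 1. On the probe set that rose, Lgals12 averaged 4.83 in transgenic and 4.84 in control newborn hearts, below these medians as well. Lgals2 passed in no comparison.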
